A study of Homo sapiens with 2 samples.

Results

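The 44 protein-coding collagen genes of types I to XXVIII were taken by their RefSeq symbols, and 40 of them are among the 18518 gene numbers listed in the series. They were followed in 1 library from wild-type H1, a widely used line of human embryonic stem cells, and 1 library from H1 labelled MEIS1-/-, which is named here by that label. MEIS1 encodes a homeodomain transcription factor. Both cultures had activin A at 40 ng/ml with BMP4 at 50 ng/ml for 2 days and then VEGF at 40 ng/ml with bFGF at 50 ng/ml, and both were collected at day 3 of differentiation towards blood. Clones, cultures per library and the deleted part of the gene were not given in the sources used here.

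Collagens are the main structural proteins of the extracellular matrix. Each molecule is a triple helix wound from chains that are encoded by separate genes and numbered by type, and a chain leaves the cell only after it has trimerised with its partners. Fibril-forming types build cables, type IV builds the sheet of basement membranes, type VI builds beaded filaments, fibril-associated types decorate cables, and the transmembrane types stay anchored at the cell surface. In the early embryo basement membranes separate epithelium from mesoderm, and mesenchymal cells start to make fibril-forming types as they spread.

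The family was selected on its count ratios between these same libraries, because chains of the same type had moved apart, so every difference given is a description of 2 libraries without replicates, with no test. Values are estimated read counts and FPKM, which is scaled for gene length and depth and allows levels of different genes to be set side by side. Ratios carry 95% counting intervals, and a gene is called higher or lower in the MEIS1-/- library when that interval excluded a ratio of 1. The totals were 5202847 counts in wild type and 5296397 in the MEIS1-/- library. MEIS1 itself had 89 and 68 counts, 1.32-fold lower (0.955 to 1.84), so the genotype label could not be checked from its level.

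The culture held the markers of a mixed early population. Over all 14381 genes compared, 15.2% were higher in the MEIS1-/- library and 14.9% lower, and 2.95% were at least 2-fold lower. In the MEIS1-/- library 4 of 4 measured pluripotency markers were lower, from 1.08-fold for LIN28A to 1.92-fold for NANOG, and none reached 2-fold. SOX2, with 4 and 9 counts, was not compared. Of the 6 measured markers of primitive streak and mesoderm, TBXT, MIXL1 and EOMES were at least 2-fold lower and PDGFRA, KDR and HAND1 were higher, with sums of 487 and 499 FPKM. All 6 measured endothelial markers were higher, with a summed level of 36.2 FPKM in wild type and 108 in the MEIS1-/- library. Of the 7 measured fibroblast and mural markers 4 were higher and 1 lower, with sums of 543 and 628 FPKM, and DCN was at 0 in both. Blood markers summed to 4.2 and 7.52 FPKM. Notochord and cartilage markers summed to 25.1 and 26.3 FPKM, most of it from SOX9 (23.5 and 24.1), with NOTO at 0 in both. Ectoderm markers summed to 21.9 and 10.1 FPKM with SOX1 and KRT5 at 0 in both. Nearly all of the ectoderm sum came from OTX2 (20.4 and 8.84), while PAX6 and TP63 were not separated from a ratio of 1. Endoderm markers summed to 89.6 and 106 FPKM but to 1136 and 1067 counts, with APOA1 higher (18.1 and 51.9 FPKM), SOX17 lower (37.8 and 22.9 FPKM) and the other 3 measured not separated from a ratio of 1. The part of these cell types in any collagen difference was not tested. In bulk RNA, fewer cells of a type and less RNA per cell cannot be told apart.

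Several type IV genes lie head to head, so that the bases between their start sites serve both genes. The stretches below come from RefSeq promoter windows of build GRCh38.p14. Those of COL4A1, COL4A2 and COL4A5 are shown because gene pairs with such a shared stretch are compared here. COL13A1 is shown because it had the lowest ratio of the genes compared. COL6A2 is shown because it belongs to the type whose compared chains moved farthest apart. Capitals mark matches, on either strand, to the CCAAT box (letters CCAAT), the GC box (letters GGGCGG), the TATA box (letters TATAAA) and the core bound by MEIS proteins (letters TGACAG), and none of these motifs contains another. The COL4A1 and COL4A2 stretch, at chr13:110307167-110307196 on the plus strand, comes from the 126 bases between the start sites. The COL4A5 stretch is chrX:108439588-108439837 on the plus strand, taken from the 379 bases between COL4A5 and the nearer COL4A6 start site. The COL4A6 stretch is chrX:108438467-108438496 on the minus strand, before the farther COL4A6 start site. It lies outside the bases shared with COL4A5 and is shown for its match to the MEIS core. The COL13A1 stretch is chr10:69801656-69801866 and the COL6A2 stretch chr21:46097862-46098096, both on the plus strand.
COL4A1 and COL4A2: gggccgagctccCCAATttgttggcgctgc
COL4A5: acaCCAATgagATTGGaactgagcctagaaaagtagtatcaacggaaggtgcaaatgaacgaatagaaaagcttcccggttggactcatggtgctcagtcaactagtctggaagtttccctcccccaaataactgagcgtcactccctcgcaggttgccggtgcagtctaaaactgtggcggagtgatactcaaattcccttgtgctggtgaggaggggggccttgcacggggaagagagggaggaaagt
COL4A6: gtaggggggatgatTGACAGcagacagccc
COL13A1: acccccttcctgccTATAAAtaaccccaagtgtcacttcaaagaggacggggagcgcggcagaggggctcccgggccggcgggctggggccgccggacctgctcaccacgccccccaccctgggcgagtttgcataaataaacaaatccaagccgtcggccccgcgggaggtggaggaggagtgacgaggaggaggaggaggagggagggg
COL6A2: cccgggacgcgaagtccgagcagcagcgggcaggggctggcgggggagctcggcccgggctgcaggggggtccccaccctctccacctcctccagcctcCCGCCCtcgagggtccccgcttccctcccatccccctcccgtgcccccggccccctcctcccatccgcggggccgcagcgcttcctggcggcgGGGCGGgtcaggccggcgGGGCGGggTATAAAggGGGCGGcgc

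RefSeq windows of 300 bases were matched for 32 of the 44 collagen genes, which had 44 windows because some genes have several start sites. The CCAAT box was present in 14 collagen windows (31.8%, against 34.6% of all 35116 windows), the GC box in 24 (54.5% against 45.0%), the TATA box in 8 (18.2% against 11.5%) and the MEIS core in 6 (13.6% against 15.8%). The 6 genes with the MEIS core were COL10A1, COL19A1, COL28A1, COL4A6, COL5A3 and COL9A2, and of these COL10A1, COL28A1 and COL5A3 had fewer than 10 counts in both libraries. COL4A6, COL9A2 and COL19A1, the measured genes with that core, each had a counting interval that included a ratio of 1. Genes without a window were not searched, so nothing can be said of the core in them. COL1A1, COL3A1, COL5A2, COL6A1, COL6A3 and COL14A1 were in no motif's list of matches. Which of them had a window is not given here, so the core cannot be set against the ratios of the family. A match says only that the letters are in the window.

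Of the 44 genes, 35 had at least 10 counts in 1 library or more and were compared, 5 were listed with fewer and 4 were listed in neither table. COL4A3, COL5A3, COL20A1 and COL28A1 were listed in neither, and a gene at 0 could hold up to 3 counts. COL4A4, COL6A5, COL8A2, COL10A1 and COL24A1 stayed under 10. Every listed collagen gene had whole counts within 0.005 in both tables. The antisense genes COL4A2-AS1, with 18 and 16 counts, and COL18A1-AS1, with 4 and 2, were listed apart. Whether the reads kept strand was not stated, so reads of a gene and of an antisense partner could not be told apart.

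Among the 35 genes compared, 11 were higher in the MEIS1-/- library (31.4%, against 15.2% of all 14381 genes compared), 10 were lower (28.6% against 14.9%) and 14 had an interval that included 1. The collagen genes also had more counts behind them, with a median of 381 in the library where each was higher against 151 over all genes, and more counts narrow an interval. A difference of at least 2-fold was found for COL3A1 and COL6A3 in the higher direction (2 genes, 5.71%, against 2.9% of all genes) and for COL13A1 and COL14A1 in the lower (2 genes, 5.71%, against 2.95%). The median log2 ratio was -0.08 and the quartiles -0.40 and 0.44, against a median of 0.00089 and quartiles of -0.22 and 0.21 over all genes. Of the 35 genes 22 lay within 1.5-fold (62.9%, against 82.6% of all genes). The family had a median near 0 with members spread to both sides, as the plot of ratios shows. It was selected on these same ratios because chains had moved apart. Its wider spread beside all genes is thus part of that choice and no separate finding.

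**Figure D1:**
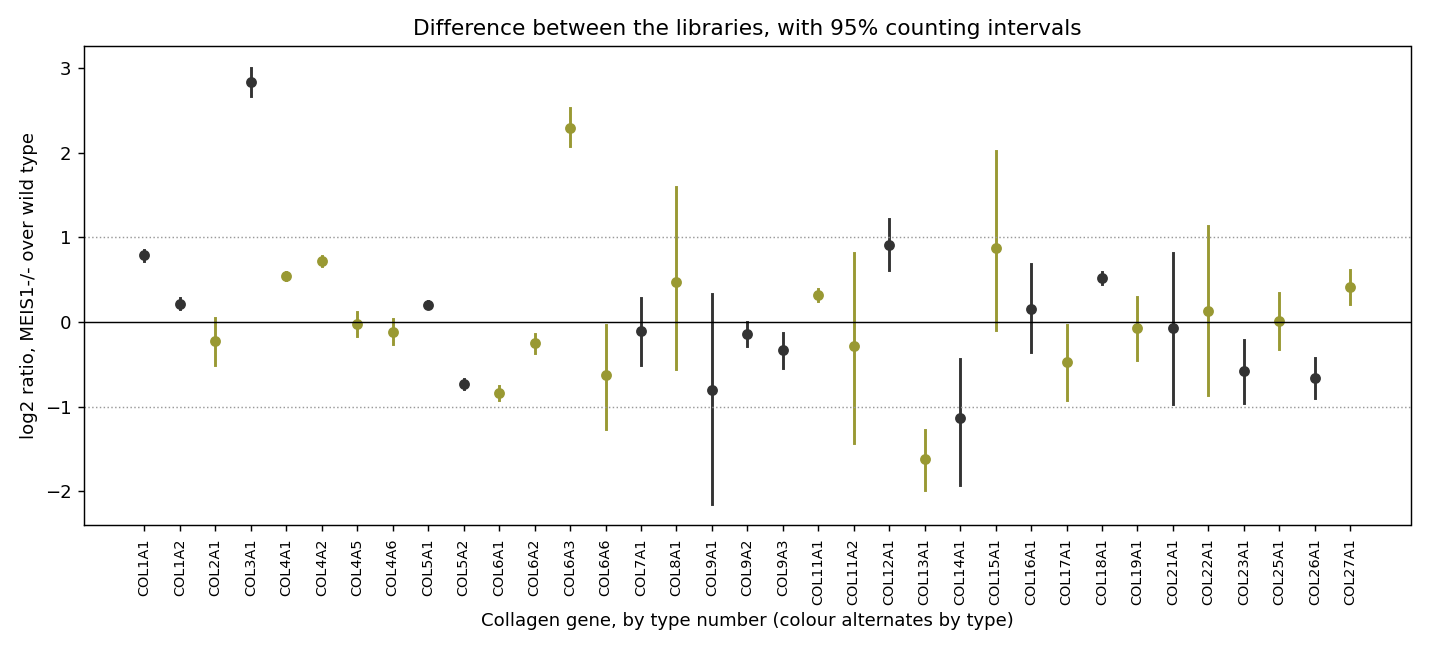
Log2 ratio of the MEIS1-/- library over wild type (y axis) for the 35 collagen genes compared (x axis, by type number, with the colour changing from type to type). Points are ratios, lines are 95% counting intervals from 1 library per genotype, and dotted lines mark 2-fold; COL3A1 and COL6A3 lie above the upper line and COL13A1 and COL14A1 below the lower.

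Summed over the family, collagen transcripts made up 0.902% of all counts in wild type and 1.09% in the MEIS1-/- library, 1.22-fold higher (1.20 to 1.23), although the median gene had a slightly negative ratio. A few genes held most of the summed collagen FPKM in each library. In wild type the 6 genes with the highest levels, COL4A1, COL5A1, COL5A2, COL6A1, COL1A2 and COL4A2, held 59.8% of the summed collagen FPKM. In the MEIS1-/- library the 6 highest were COL4A1, COL5A1, COL4A2, COL1A1, COL1A2 and COL18A1, with 64.1%. COL5A2 and COL6A1 left the leading group and COL1A1 and COL18A1 entered it.

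**Figure D2:**
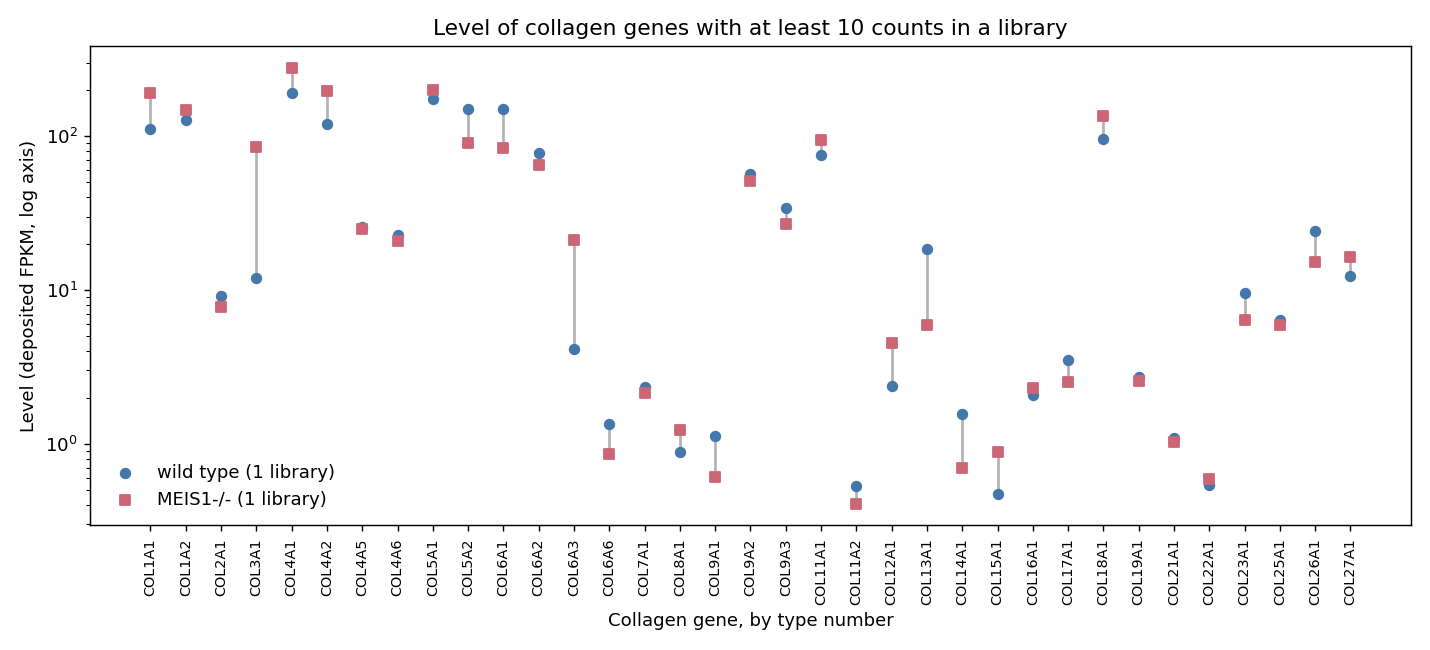
Deposited FPKM (y axis, log scale) of the 35 collagen genes that reached 10 counts in either library (x axis). Circles are the wild-type library and squares the MEIS1-/- library, joined per gene; levels ran from under 1 FPKM for COL11A2 to 191 and 278 for COL4A1.

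By structural class, fibril-forming chains made up 44.1% of the collagen FPKM in wild type and 46.5% in the MEIS1-/- library. In counts not scaled for length the order turned, with 51.5% and 51.0%. Type IV held the largest share of any type by FPKM in both libraries, but in wild-type counts type V held more, with 28.2% against 25.96%. The basement membrane network of type IV took 23.5% and 29.1%, and beaded filaments of type VI 15.3% and 9.55%. The multiplexins, basement membrane proteins of types XV and XVIII, took 6.24% and 7.60%, fibril-associated types 6.68% and 5.04%, and transmembrane types 2.48% and 1.16%. In summed counts type IV was 1.45-fold higher (1.42 to 1.49), the multiplexins 1.43-fold higher (1.36 to 1.5), type VI 1.22-fold lower (1.17 to 1.27) and the transmembrane types 1.64-fold lower (1.45 to 1.86). The fibril-associated sum was 1.05-fold lower with an interval that included 1 (0.981 to 1.12). These sums hide chains of a type that differed, which are given next.

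**Figure D3:**
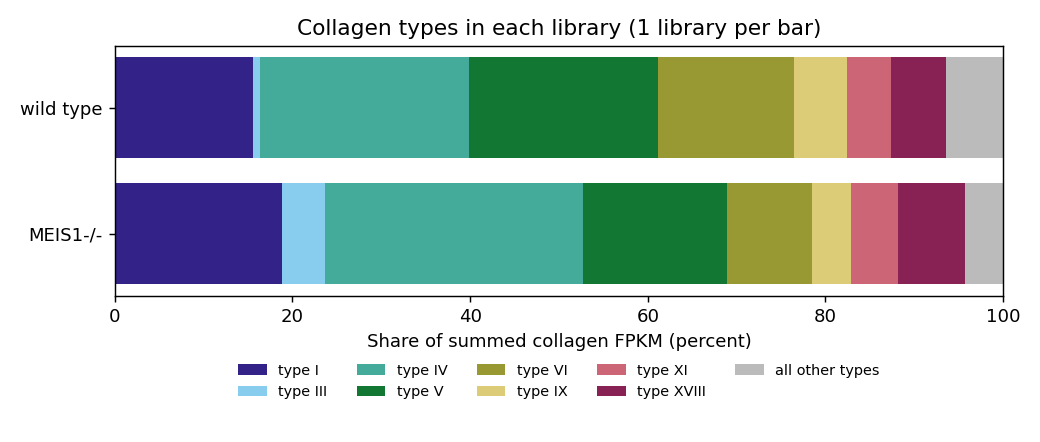
Share of the summed collagen FPKM (x axis, percent) held by each type in wild type (upper bar) and in the MEIS1-/- library (lower bar), 1 library per bar. By FPKM type IV was the largest share in both, with 23.5% and 29.1%, while type III went from 0.787% to 4.77% and type VI from 15.3% to 9.55%.

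Type I, the main fibril of skin, bone and tendon, is built from COL1A1 and COL1A2 chains, with COL1A1 chains in excess. COL1A1 (gene 1277) reached 3440 counts in wild type and 5998 in the MEIS1-/- library, or 111 and 190 FPKM, 1.72-fold higher (1.65 to 1.80). COL1A2 (gene 1278) had 3622 and 4255 counts, or 128 and 147 FPKM, 1.16-fold higher (1.11 to 1.21). Both chains were therefore higher, COL1A1 by more. The level of COL1A1 was 0.867 of that of COL1A2 in wild type and 1.29 times it in the MEIS1-/- library, a change in their count ratio of 1.48-fold (1.40 to 1.58). In wild type the major chain thus had the lower level, and in the other library the higher.

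Type III is a homotrimer of COL3A1 chains that forms thin fibrils with type I in vessels and loose tissue. COL3A1 (gene 1281) had 346 and 2498 counts, or 12.03 and 85.32 FPKM, 7.12-fold higher (6.37 to 8.01). It had the largest ratio of the 35 genes compared. Its rank by FPKM among listed genes went from the top 33.6% to the top 4.11%. Against COL1A1, its fibril partner, the level of COL3A1 was 0.109 in wild type and 0.450 in the MEIS1-/- library, a 4.14-fold change (3.67 to 4.67). The 6 endothelial markers given above were higher in the same library. Of the 7 measured fibroblast and mural markers 4 were also higher and 1 was lower. The part of either set in this difference was not tested.

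Type V nucleates fibrils and sets their width, and its common form joins COL5A1 and COL5A2 chains. COL5A1 (gene 1289) had 7739 and 9032 counts, or 175 and 200.2 FPKM, 1.15-fold higher (1.12 to 1.19). COL5A2 (gene 1290) had 5469 and 3331 counts, or 150.46 and 90.01 FPKM, 1.66-fold lower (1.59 to 1.74). The chains of this type went in opposite directions, with a summed ratio close to 1 (1.08-fold lower, 1.05 to 1.11). The level of COL5A1 was 1.16 times that of COL5A2 in wild type and 2.22 times in the MEIS1-/- library, a 1.92-fold change in count ratio (1.82 to 2.02). COL5A2 and COL3A1 have no other protein-coding gene between them on chromosome 2 in RefSeq, and the count ratio of COL3A1 to COL5A2 differed by 11.9-fold (10.5 to 13.4).

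The other fibril-forming genes compared all lay within 1.5-fold. COL11A1 (gene 1301), whose chain is related to those of type V and acts in cartilage fibrils, had 2893 and 3655 counts, or 75.7 and 93.8 FPKM, 1.25-fold higher (1.19 to 1.31). COL27A1, of a type with a shorter helix, had 362 and 488 counts, or 12.4 and 16.4 FPKM, 1.33-fold higher (1.16 to 1.53). COL2A1, the main fibril chain of cartilage, also made in early embryos, had 242 and 209 counts, or 9.09 and 7.71 FPKM, with an interval that included 1 (1.17-fold lower, 0.970 to 1.42). COL11A2 had 17 and 14 counts. Between COL11A1 and COL11A2, only COL11A1 thus had a sizeable level in these libraries. It stood at 143 times the COL11A2 level in wild type and 229 times in the MEIS1-/- library. The counting interval of that change included 1 (1.53-fold, 0.755 to 3.12).

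Type IV has 6 chains in 3 head-to-head gene pairs, and the common network joins COL4A1 and COL4A2. COL4A1 (gene 1282), on chromosome 13, had 6574 and 9715 counts, or 191 and 278 FPKM, 1.46-fold higher (1.42 to 1.51). Its partner COL4A2 (gene 1284) had 3923 and 6557 counts, or 119 and 196 FPKM, 1.65-fold higher (1.59 to 1.72). COL4A1 had the highest collagen level in both libraries, among the top 1.46% and the top 0.955% of listed genes. The level of COL4A1 over COL4A2 was 1.602 and 1.417, and the change of their count ratio (0.884, 0.841 to 0.930) was small beside the difference of either gene. The pair that shares the CCAAT stretch printed above therefore went in the same direction by similar amounts.

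The X-linked pair COL4A5 and COL4A6, whose chains form a second network in kidney, eye and smooth muscle, did not follow. COL4A5 (gene 1287) had 874 and 870 counts, or 25.5 and 24.9 FPKM, 1.02-fold lower (0.925 to 1.12). COL4A6 (gene 1288) had 799 and 747 counts, or 22.7 and 20.8 FPKM, 1.08-fold lower (0.978 to 1.20). Neither gene was separated from a ratio of 1. Their balance was 1.12 and 1.20, with a change of 1.06-fold that included 1 (0.928 to 1.22). COL4A1 was 7.51 times COL4A5 in wild type and 11.2 times in the MEIS1-/- library, a 1.48-fold change (1.34 to 1.64), and COL4A2 over COL4A6 went from 5.27 to 9.42, a 1.79-fold change (1.61 to 1.99). Of the third pair COL4A4 had 5 and 2 counts and COL4A3 was listed in neither table.

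Type VI links cells to the matrix, and its usual unit needs COL6A1, COL6A2 and COL6A3 chains together. COL6A1 (gene 1291) had 3337 and 1895 counts, or 150.3 and 83.8 FPKM, 1.78-fold lower (1.68 to 1.89). COL6A2 (gene 1292), its neighbour on chromosome 21, had 1378 and 1170 counts, or 77.3 and 65.0 FPKM, 1.19-fold lower (1.10 to 1.29). COL6A3 (gene 1293), on chromosome 2, had 205 and 1019 counts, or 4.15 and 20.98 FPKM, 4.89-fold higher (4.22 to 5.73). The least abundant of the 3 chains was the one that was higher, and the other 2 were lower.

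COL6A3 was at 0.0276 of the COL6A1 level in wild type and 0.250 in the MEIS1-/- library, an 8.75-fold change of the count ratio (7.46 to 10.3). Relative to COL6A2 it went from 0.0537 to 0.323, a 5.85-fold change (4.94 to 6.93). COL6A1 over COL6A2 went from 1.95 to 1.29, 1.49-fold lower (1.36 to 1.65). COL6A3 stayed below COL6A1 and COL6A2 in both libraries. The deposited length of COL6A3, an average over its 5 listed transcripts, was 9409 bases in wild type and 9083 in the MEIS1-/- library, and no error was given for it. COL6A6, a chain that can take the place of COL6A3, had 60 and 39 counts, or 1.35 and 0.86 FPKM, 1.54-fold lower (1.02 to 2.39), and COL6A5 had 3 and 0.

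**Figure D4:**
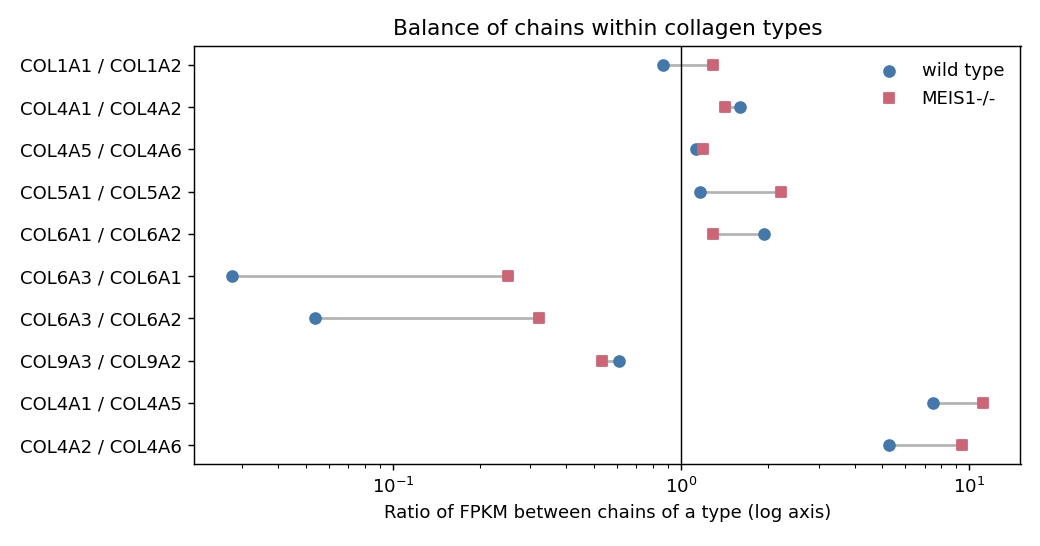
Ratio of deposited FPKM between chains of the same type (x axis, log scale) in wild type (circles) and the MEIS1-/- library (squares), 1 library each. The ratio of COL6A3 to COL6A1 moved from 0.0276 to 0.250 and that of COL5A1 to COL5A2 from 1.16 to 2.22, while COL4A5 to COL4A6 stayed at 1.12 and 1.20.

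Types XV and XVIII are basement membrane proteins that carry sugar chains, and the end of the COL18A1 chain is cut off as endostatin, an inhibitor of vessel growth. COL18A1 (gene 80781) had 2689 and 3890 counts, or 94.99 and 135 FPKM, 1.43-fold higher (1.36 to 1.5). It was higher by nearly the same amount as COL4A1, which lies in the same membranes. COL15A1 had 13 and 25 counts, 1.84-fold higher with an interval that included 1 (0.936 to 4.04). COL7A1, the anchoring fibril that ties basement membrane to the skin below it, had 112 and 105 counts, or 2.33 and 2.14 FPKM, and was not separated from a ratio of 1 (1.08-fold lower, 0.820 to 1.42).

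Of the fibril-associated genes compared, COL12A1 was higher, COL9A3 and COL14A1 were lower, and the rest had intervals that included 1. Type IX sits on cartilage fibrils and joins COL9A1, COL9A2 and COL9A3. COL9A2 (gene 1298) had 830 and 762 counts, or 56.3 and 50.8 FPKM, 1.10-fold lower with an interval that included 1 (0.998 to 1.22). COL9A3 (gene 1299) had 442 and 355 counts, or 34.23 and 27 FPKM, 1.26-fold lower (1.09 to 1.45). COL9A1 had only 18 and 10 counts, at 1.12 and 0.61 FPKM, so COL9A2 stood at 50.3 times the COL9A1 level in wild type and 83.3 times in the other library, where the counting interval of the change included 1 (1.65-fold, 0.758 to 3.60). The 3 chains of this type were thus far from equal in both libraries. SOX9, the cartilage factor, had 486 and 508 counts, and the cartilage gene ACAN 14 and 18.

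COL12A1 and COL14A1 encode related proteins that coat type I fibrils, and they went in opposite directions. COL12A1 (gene 1303) had 139 and 265 counts, or 2.38 and 4.53 FPKM, 1.88-fold higher (1.53 to 2.33). COL14A1 (gene 7373) had 53 and 24 counts, or 1.56 and 0.70 FPKM, 2.19-fold lower (1.36 to 3.79). Both were low, and the COL14A1 difference rested on few counts. On the log2(FPKM + 1) scale, which understates low genes, its log2 ratio was -0.59 and did not reach 2-fold. COL16A1, with 61 and 69 counts, or 2.09 and 2.32 FPKM, was 1.12-fold higher (0.780 to 1.604), and COL19A1, with 125 and 120 counts, or 2.73 and 2.57 FPKM, 1.05-fold lower (0.814 to 1.37). Neither was separated from 1. COL21A1 had 24 and 23 counts and COL22A1 18 and 20, with ratios of 0.949 and 1.09 whose intervals included 1.

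The transmembrane types stay in the cell membrane and act at junctions and synapses. COL13A1 (gene 1305), found at cell contacts and the nerve-muscle junction, had 280 and 92 counts, or 18.3 and 5.91 FPKM, 3.06-fold lower (2.43 to 3.94). It had the lowest ratio of the 35 genes compared. COL23A1 had 154 and 104 counts, or 9.60 and 6.36 FPKM, 1.49-fold lower (1.16 to 1.94). COL17A1, which holds basal skin cells to the basement membrane, had 103 and 75 counts, or 3.50 and 2.51 FPKM, 1.38-fold lower (1.02 to 1.90). COL25A1, a neuronal member, had 149 and 152 counts, 1.01-fold higher (0.799 to 1.27), so 3 of the 4 transmembrane genes were lower and 1 was not separated from a ratio of 1. For COL25A1 the FPKM values, 6.41 and 5.96, had the opposite order to the counts because the deposited average length over 4 listed transcripts was 4447 and 4789 bases.

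The remaining members were COL26A1 and the short-chain network types VIII and X, which form hexagonal lattices. COL26A1 (gene 136227), a collagen-like gene of the gonads, had 381 and 244 counts, or 24.1 and 15.2 FPKM, 1.58-fold lower (1.34 to 1.86). COL8A1 had 14 and 20 counts, a ratio of 1.38 with an interval that included 1 (0.678 to 3.02). Short-chain types were near the floor in both libraries, since COL8A2 had 1 and 4 counts and COL10A1, the chain of growth-plate cartilage, 2 and 5.

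In RefSeq, 7 pairs of collagen genes had no other protein-coding gene between them. In COL4A1 with COL4A2 both were higher and in COL6A1 with COL6A2 both were lower. In COL3A1 with COL5A2 one was higher and the other lower, and in COL6A5 with COL6A6 the second was lower and the first had under 10 counts. In COL4A5 with COL4A6 and in COL19A1 with COL9A1 no member was separated from 1, and in COL4A3 with COL4A4 both had under 10 counts and were not compared. Of the 3 pairs with both members separated from 1, the pair from different types was the one that split.

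Collagen chains are hydroxylated and folded in the endoplasmic reticulum before they are secreted. Of 20 measured folding and modifying genes, 7 were higher and 3 lower, while 10 intervals included 1, with a median log2 ratio of 0.10. Over all genes 15.2% were higher and 14.9% lower, shares that apply to each list given here, and the 3 lower genes were near that background. P3H2, a prolyl hydroxylase that acts on type IV chains, had 2041 and 1017 counts, or 121 and 59.9 FPKM, 2.03-fold lower (1.88 to 2.19), and its counts were not whole. FKBP7, a chaperone, had 58 and 91 counts, 1.54-fold higher (1.10 to 2.19). The collagen chaperone SERPINH1, also called HSP47, had 4051 and 4089 counts and was not separated from 1. Of 12 measured genes listed for collagen secretion 2 were higher, near the background of 15.2%, 0 lower and 10 included 1 (median 0.012). These 12 include TANGO2, whose part in collagen secretion is not established.

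Outside the cell, proteases trim the chain ends and oxidases cross-link the fibrils. Of 13 measured genes of this list 4 were higher (15.2% of all genes), 1 lower (14.9% of all genes) and 8 included 1 (median 0.24). TGM2, a transglutaminase that cross-links matrix, had 85 and 242 counts, 2.79-fold higher (2.19 to 3.65). LOX, a lysyl oxidase of fibril-forming types, had 266 and 493 counts, 1.83-fold higher (1.57 to 2.13), and LOXL2, an oxidase of type IV networks, 1186 and 1826, 1.52-fold higher (1.41 to 1.64). ADAMTS3, which removes the amino-terminal end of fibrillar chains, had 348 and 177 counts, 1.98-fold lower (1.66 to 2.40).

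Of 10 measured genes of proteins that bind fibrils 6 were higher (15.2% of all genes), 2 lower (14.9% of all genes) and 2 included 1 (median 0.28). BGN (biglycan) had 103 and 213 counts, 2.03-fold higher (1.61 to 2.61), and LUM (lumican) 185 and 319, 1.70-fold higher (1.42 to 2.05). PRELP, a related proteoglycan, had 340 and 146 counts, 2.35-fold lower (1.94 to 2.88), and the cartilage protein gene MATN3 had 472 and 306, 1.56-fold lower (1.35 to 1.81). The expected count was not whole for PRELP in both libraries and for BGN in the MEIS1-/- library. DCN, KERA, COMP and DPT were listed in neither table.

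Of 6 measured genes listed as collagen receptors outside the integrins 0 were higher, 2 lower and 4 included 1. The median of 0.23 had the opposite sign to the genes separated from 1. These 6 include PLAUR, the urokinase receptor, with 14 and 22 counts and an interval that included 1. DDR1, a tyrosine kinase that binds several types, had 536 and 434 counts, 1.25-fold lower (1.10 to 1.42). DDR2, which prefers fibrillar types, had 32 and 48, 1.47-fold higher with an interval that included 1 (0.928 to 2.40). Of 11 measured collagen-like proteins 2 were higher, 2 lower and 7 included 1 (median 0.28). CTHRC1, a secreted protein with a short collagen helix, had 27 and 91 counts, 3.25-fold higher (2.15 to 5.32), and SCARA3 had 117 and 190, 1.599-fold higher (1.27 to 2.04).

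**Figure D5:**
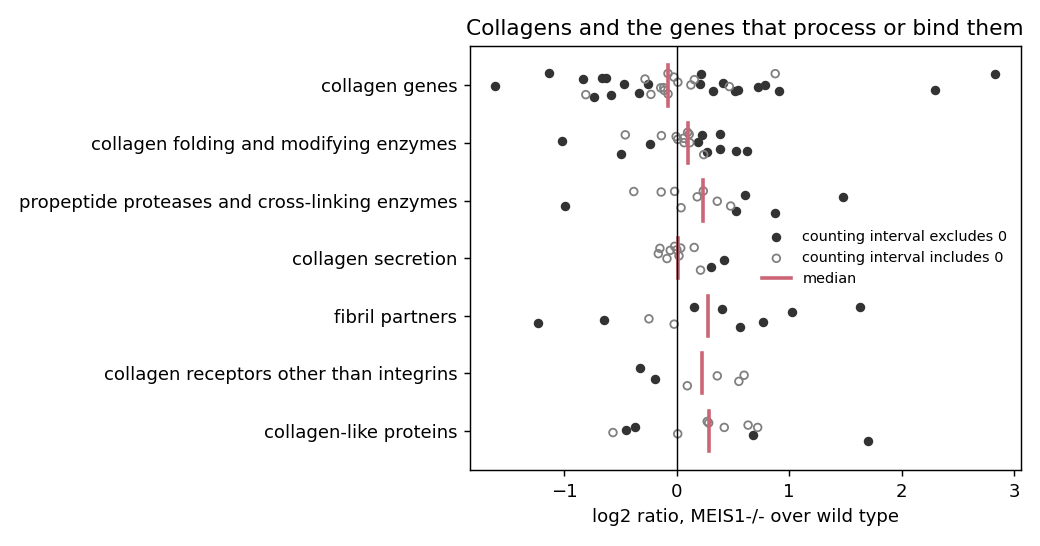
Log2 ratio of the MEIS1-/- library over wild type (x axis) for collagen genes and for 6 lists of genes that process, secrete or bind collagen (y axis). Each point is a gene that reached 10 counts in either library, filled where its counting interval excluded 0 on this scale, and red bars are medians; collagen genes spread from COL13A1 at -1.61 to COL3A1 at 2.83.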

How the data were processed

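The authors deposited 1 table per library, made with a tool that gives each gene an expected count, which is an estimated count without scaling, per the file headers. The deposited FPKM values were scaled by the authors for length and depth, and each gene also has an average transcript length, per the file headers. Build hg19 and the tools RSEM, Bowtie and BWA are listed in the submitters' processing notes. The series design text also named TopHat and Cufflinks, and which steps made the tables is not given in the sources used here. Gene numbers were matched to RefSeq symbols of GRCh38.p14 (18413 of 18518), and absent rows were taken as 0.

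Expected counts were rounded and scaled by effective library sizes, computed with the TMM method of edgeR 4.0.16 (R 4.3.3) over genes with at least 10 counts, whose quotient was 1.01. Ratios used a pseudocount of 1, and their exact Clopper-Pearson 95% intervals, conditional on the summed count, used none. Intervals of a change in the ratio between 2 genes came from Poisson counts on the log scale and need no scaling. All intervals, and the floor of 3 counts, leave out any error but counting, and PCR copies are not separate molecules. No model or test was possible with a single library for each genotype. The computation was tested on simulated data.

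Every collagen gene was accounted for: those with at least 50 counts in full, those with 10 to 49 by counts and ratio, others by name. From the other lists, members with at least 50 counts and at least 1.5-fold were named, up to 4 per direction, and genes beyond this rule (SERPINH1, DDR1, DDR2, SOX9, ACAN) were chosen after their values were seen. The members and lists were chosen with earlier results of these data known. Alternatives were DESeq2 1.42.0 size factors, total counts, other count minimums, a pseudocount of 0.5, FPKM, counts not rounded and other fold sizes.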

Additional observations from a re-analysis of the deposited data

How the results depend on the processing

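No paired analysis was possible because each genotype had 1 library, and with no replicates the spread between cultures is unknown. Single-gene log2 ratios stayed within their counting intervals in 175 of 175 recalculated values, and summed ratios of a type in 96 of 96. For all settings but FPKM this outcome was nearly fixed in advance. Every listed collagen count was whole, both DESeq2 size factors were 1, and scaling by total counts hardly changed a ratio. FPKM was not applied to the summed ratios. The counts of collagen genes higher and lower by interval were 11 and 10 with DESeq2 size factors and with a minimum of 1 or 50 counts, and 11 and 11 with total counts. At 1.5-fold in place of 2-fold, 5 of the 35 collagen genes were higher and 6 lower, against 825 and 899 of all 14381 genes. At 4-fold 2 collagen genes were higher and 0 lower, against 111 and 81 of all genes. A minimum of 50 counts left 161 and 171 of all genes. From FPKM with a pseudocount of 1, where no interval was needed, 2 collagen genes were at least 2-fold higher and 1, COL13A1, lower. Of all genes 181 were higher and 183 lower in that setting. Without scaling for length, the share of fibril-forming types was 51.5% for wild type and 51.0% for the MEIS1-/- library, that of type IV 25.96% and 30.9%, and that of type VI 10.6% and 7.13%, so the fibril-forming share, higher in the MEIS1-/- library by FPKM, was lower there by counts. Counts under 50 limited COL8A1, COL9A1, COL11A2, COL15A1, COL21A1 and COL22A1.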
